A study of Mus musculus with 9 samples.

Results

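The genes described here encode the enzymes, regulators and carriers with which a mouse cell makes cholesterol and fatty acids and sends sterol out again. The 34 members were taken by name from a written list of the pathway, and 34 of 34 were found among the 24060 genes of the expression table. They comprise 5 regulators of sterol synthesis, 17 genes of sterol synthesis and transport, 10 genes of fatty acid synthesis, desaturation and elongation, and 2 sterol exporters. Of the 34, 33 exceeded 1 TPM, a relative abundance corrected for transcript length, in at least 1 library and were tested among the 11330 genes that did so, while the exporter Abca1 stayed below that level.

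RNA was sequenced from CD8 T cells of 3 transnuclear mouse lines, R7-I, R7-II and R7-III, on a CD90.2-positive BALB/c background which is Rag2-proficient, so that other lymphocytes can form, with 3 biological replicates per line and ages not given. Each line descends from the nucleus of a CD8 T cell specific for the Toxoplasma gondii antigen ROP7, so that each is 1 clone, and effects of clone and of mouse line cannot be told apart. Splenocytes of all 3 lines were kept overnight with IL-2 at 10 ng/ml and ROP7 peptide at 10 μM, and live CD8-positive cells that bound the ROP7 tetramer were sorted. According to the study, R7-I binds its ligand most strongly and R7-II most weakly, and the comparisons ask how far the lipid synthesis genes differ between the weakest binder and the other clones. The study gives only a typical depth and the TPM table keeps no read counts, so the depth of each library is unknown and no counting interval is given. Between 13738 and 14434 genes were above 0 in each library.

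A cell that needs sterol releases the transcription factors SREBP1 and SREBP2, encoded by Srebf1 and Srebf2, from the endoplasmic reticulum with the help of the escort protein SCAP, and the INSIG proteins hold them back when sterol is plentiful. SREBP2 mainly drives the genes that turn acetyl-CoA through mevalonate and squalene into cholesterol, SREBP1 mainly those of fatty acid synthesis and desaturation, and oxysterols acting on liver X receptors switch on Srebf1 and the exporters Abca1 and Abcg1. T cells that divide after antigen contact build new membrane and are known to raise sterol and fatty acid synthesis while keeping sterol export low.

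In R7-II cells several genes of sterol synthesis, both before and after squalene, and Fasn and Acaca of fatty acid synthesis were less abundant than in both other clones, whereas Srebf1, Insig2, Dhcr7, Tm7sf2, Scd2 and Elovl5 were more abundant. Once libraries were rescaled as described below, Insig2 was no longer called higher than in R7-I. The same held for Dhcr7 and Tm7sf2 against R7-III. By the moderated test of limma on log2(TPM + 1), with a threshold of 0.01 on the adjusted p, 9 of 33 members passed as higher and 11 as lower in R7-II than R7-I. Over all 11330 genes, 40.6% passed as higher and 15.5% as lower. Against R7-III, 8 members passed as higher and 15 as lower, beside 35.6% higher and 18.0% lower over all genes. Both comparisons share the R7-II libraries. Between R7-III and R7-I, 5 members passed as higher in R7-III, beside 6.96% of all genes, and 0 as lower in limma, beside 1.45% of all genes. At an unadjusted p under 0.05, 3 members were lower there. Fold changes on the log2(TPM + 1) scale understate the ratio of genes at low levels. They are relative within each library, and fewer cells of a type and less RNA per cell cannot be told apart.

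The scale itself matters for the split. The median log2 fold change of all genes lay at 0.17 in R7-II against R7-I and at 0.12 in R7-II against R7-III, while that of the 33 members lay at -0.03 and -0.17. After division of each library by a median-of-ratios factor, which takes out the shift, 7 members passed as higher and 16 as lower in R7-II than R7-I, beside 25.2% and 29.4% of all genes. Against R7-III the counts became 6 higher and 18 lower, beside 25.0% and 28.2%, and in R7-III against R7-I 2 higher and 1 lower, beside 4.86% and 3.72%. Of the members that passed, 45.0% were higher in R7-II than R7-I as deposited and 30.4% after this scaling, while over all genes the share went from 72.4% to 46.2%. Against R7-III the shares were 34.8% and 25.0% for the members and 66.4% and 47.0% for all genes. In R7-III against R7-I they were 5 of 5 and 66.7% for the members and 82.8% and 56.6% for all genes. Scd1 and Abcg1 passed the filter on low values through R7-II alone, so that their calls carry no weight. Among the 31 members above the filter in every clone, 7 were higher and 11 lower in R7-II than R7-I, and 6 higher and 15 lower than in R7-III. The shares of all genes include genes above the filter in only part of the clones, so these counts are not read against them.

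**Figure D1:**
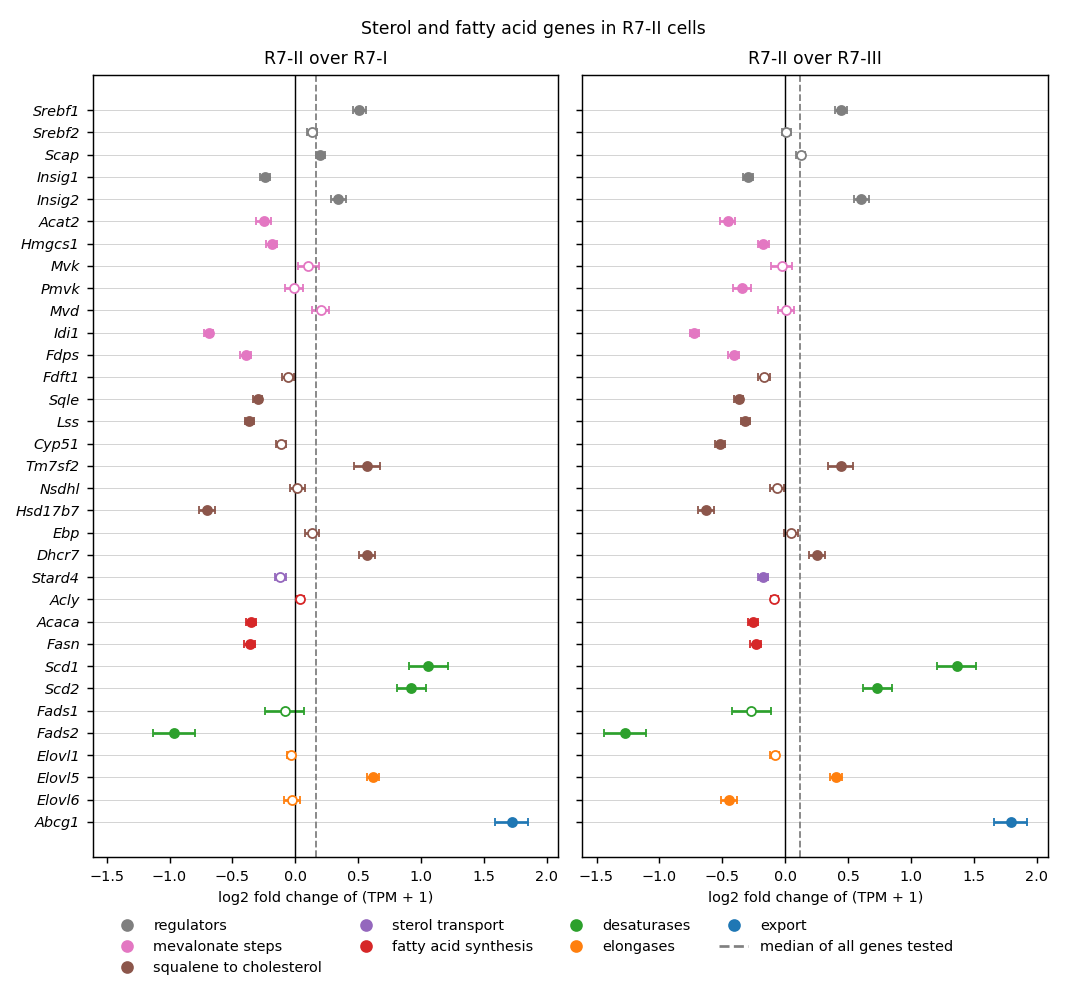
Log2 fold change of TPM + 1 for the 33 tested members, by role, in both comparisons of R7-II. Points are fold changes with their standard errors, filled where the adjusted p of limma was under 0.01 and open where it was not, and the dashed line is the median of all genes tested (0.17 and 0.12). The points of Abcg1 (1.72 and 1.79) and Scd1 (1.06 and 1.36) are of genes that entered the test through R7-II alone, so that their fill carries no weight. Fads2 stands lowest (-0.96 and -1.28).

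The sorted cells carried the markers of CD8 T cells. Summed TPM of 7 T cell markers was 1728 to 1813 in R7-I, 2473 to 2609 in R7-II and 1840 to 1919 in R7-III. The most abundant of these by the mean over the 9 libraries, Cd8b1, a chain of the CD8 coreceptor, had 310.4 to 326 TPM in R7-I, 496 to 555 in R7-II and 322 to 332 in R7-III. By limma, 6 of the 7 markers were higher in R7-II than R7-I and 6 of 7 than in R7-III (5 and 4 under median-of-ratios scaling). Over all genes 40.6% and 35.6% were higher, or 25.2% and 25.0% under this scaling. Cd4 was at 0.22 to 0.53 TPM in R7-I and R7-III and at 0.95 to 1.00 in R7-II. Of 4 CD4 T cell markers, summing to 3.36 to 8.01 TPM, 2 were tested. By limma 0 passed against R7-I (1 higher at an unadjusted p under 0.05), and against R7-III Cd40lg was lower, while the other marker exceeded the filter through R7-II alone, so that no call is read for it.

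Markers of B cells and of antigen-presenting cells were present at low levels and moved with the clone. The 8 B cell markers summed to 10.8, 15.2 and 8.14 TPM in the R7-I libraries, 71.2, 34.2 and 54.4 in R7-II, and 4.92, 7.40 and 7.22 in R7-III. All 7 B cell markers tested by limma passed as higher in R7-II than in each other clone, and Cd79b, a signalling chain of the B cell receptor, was the most abundant, at 25.4, 13.7 and 17.1 TPM in R7-II and 1.70 to 4.72 elsewhere. The 7 MHC class II genes, led by Cd74, summed to 32.4 to 50.3 TPM in R7-I, 183, 112 and 181 in R7-II and 24.3 to 28.1 in R7-III, and 7 of 7 passed as higher in R7-II in both comparisons. In each of these lists R7-II replicate 2 was the lowest of the R7-II libraries, as it was for the T cell markers (2473 TPM). The 14 myeloid markers summed to 32.7 to 39.2 TPM in R7-I, 80.1, 57.6 and 135 in R7-II and 29.7 to 33.6 in R7-III, with 7 of 11 tested higher than in R7-I and 9 of 11 than in R7-III. Ctss, a lysosomal protease, was the most abundant myeloid marker over the 9 libraries (23.2 to 42.1 TPM), Lyz2 reached 28.2, 13.8 and 56.7 TPM in R7-II against 0.25 to 2.43 elsewhere, and the complement genes C1qb and C1qc, singled out after their values were seen, were at 0 in every R7-II library. Over all genes 40.6% and 35.6% were higher in these comparisons as deposited, and 25.2% and 25.0% under median-of-ratios scaling. Under that scaling 7 B cell, 5 MHC class II and 6 myeloid markers passed as higher in R7-II than R7-I, and 7, 7 and 6 than in R7-III. Under quantile normalization the marker counts were 6, 5 and 2, and 7, 6 and 5, where 22.6% and 24.4% of all genes were higher. The 2 myeloid markers against R7-I were 18.2% of those tested, below the share of all genes. Some markers of these lists exceeded 1 TPM in only part of the clones, which favours a difference in the test. Of those above it in every clone, 4 of 4 B cell, 5 of 5 MHC class II and 3 of 4 myeloid markers were higher in R7-II than R7-I. No share of all genes under that limit is given. The part of these markers in the results for the lipid genes was not tested.

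Other cell types gave less. The 4 NK cell markers summed to 5.66 to 15.2 TPM over the libraries, almost all of it from Eomes, which CD8 T cells also express, while Ncr1 did not exceed 0.08 TPM. Eomes had 5.66, 5.51 and 12.8 TPM in R7-II and 10.3 to 15.1 elsewhere, and it missed the threshold in limma (adjusted p = 0.0388 against R7-I and 0.0454 against R7-III). It passed as lower in R7-II when R7-II replicate 3 was left out (adjusted p = 1.58e-04 and 1.95e-04, limma) and, against R7-I, under quantile normalization (0.00903). The 6 erythroid markers summed to 22.1 to 73.3 TPM in R7-I, 1.30 to 15.1 in R7-II and 8.99 to 25.5 in R7-III. Of the 4 tested by limma, 0 passed in either comparison of R7-II (2 lower against R7-I and 1 against R7-III at an unadjusted p under 0.05). Under quantile normalization 1 passed as lower in each, where all genes had 26.6% and 25.1%. Hba-a1 passed as lower against R7-III with a replicate block (adjusted p = 0.00832, limma) and without R7-III replicate 3 (-3.88, adjusted p = 0.00116), beside -2.38 and 0.0774 with all libraries. Their most abundant gene by the same mean, Hba-a2, had 20.5 to 68.2 TPM in R7-I, 0 to 14.0 in R7-II and 0 to 7.44 in R7-III. Against R7-I it missed the threshold in R7-II (adjusted p = 0.0121, limma) and passed as lower with a pseudocount of 5 (0.00576), with a replicate block (0.00383), without R7-II replicate 3 (0.00119) or without R7-III replicate 3 (0.00725).

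Among the regulators, Srebf1, which encodes SREBP1, had 41.2, 45.4 and 43.7 TPM in R7-I, 66.0, 60.0 and 60.5 in R7-II, and 45.5, 43.9 and 46.9 in R7-III. The R7-II libraries lay above all 6 others, and R7-I and R7-III overlapped. Log2 values changed by 0.51 ± 0.05 (SE, n = 3 per clone) relative to R7-I and by 0.44 ± 0.05 relative to R7-III (adjusted p = 8.95e-06 and 2.48e-05, limma), and 0.32 and 0.31 under median-of-ratios scaling. Srebf2, the sterol-directed factor, was the most abundant regulator and differed little, with 158 to 169 TPM in R7-I, 172 to 188 in R7-II and 176 to 182 in R7-III. It fell short of the threshold against R7-I (0.13, adjusted p = 0.0103, limma), although it passed as higher without R7-II replicate 3 (0.00373), under quantile normalization (0.15, adjusted p = 0.00299), with robust moderation (0.00899) and with the filter in every library (0.00925). Median-of-ratios scaling turned its change to -0.06 (adjusted p = 0.189, limma). Scap, the escort protein, had 69.8, 69.2 and 71.6 TPM in R7-I, 82.9, 78.2 and 81.3 in R7-II, and 72.4, 73.3 and 76.5 in R7-III. It was higher in every R7-II library than in the other 6, by 0.20 against R7-I (adjusted p = 5.76e-04, limma), a call that median-of-ratios scaling ended (0.01, adjusted p = 0.648) and quantile normalization kept at 0.12. Against R7-III its change of 0.12 missed the threshold (adjusted p = 0.0110, limma) but passed with no filter (0.0099972), without R7-II replicate 2 (0.00548) or without R7-III replicate 3 (0.00880), and median-of-ratios scaling turned it to -0.01 (adjusted p = 0.794).

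The INSIG genes went in opposite directions. Insig1, a retention protein that is itself an SREBP target, had 80.0, 82.3 and 76.5 TPM in R7-I, 70.6, 65.6 and 65.4 in R7-II, and 81.0, 83.3 and 84.0 in R7-III. The R7-II libraries were the 3 lowest, and log2 values changed by -0.24 relative to R7-I and by -0.30 relative to R7-III (adjusted p = 4.08e-04 and 1.01e-04, limma), or -0.43 in each under median-of-ratios scaling. Insig2, its homologue with less dependence on SREBP, had 10.9, 11.2 and 11.3 TPM in R7-I, 15.3, 13.9 and 13.9 in R7-II, and 8.76, 9.04 and 9.44 in R7-III. Here the clones did not overlap and R7-II was highest, R7-III lowest. Its log2 level differed by 0.34 from R7-I and by 0.61 from R7-III (adjusted p = 5.02e-04 and 9.48e-06, limma). Against R7-I the call ended under median-of-ratios scaling (0.17, adjusted p = 0.0126, limma) and quantile normalization (0.06, adjusted p = 0.330). Insig2 was also the member that passed as lower in R7-III than in R7-I once libraries were scaled by median of ratios (-0.31, adjusted p = 0.00248, limma, against -0.26 and 0.0125 as deposited), and it also passed there under quantile normalization (0.00176), without the trend (0.00819) and without R7-II replicate 1 (0.00819).

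Of the 7 genes that carry acetyl-CoA to farnesyl diphosphate, 4 passed in limma as lower in R7-II than R7-I and 5 as lower than in R7-III, with 0 higher in either (1 and 0 at an unadjusted p under 0.05). These are 57.1% and 71.4% lower, where all genes had 15.5% and 18.0%. Under median-of-ratios scaling 4 and 5 passed as lower, where all genes had 29.4% and 28.2%. Under quantile normalization 4 passed as lower in each, where all genes had 26.6% and 25.1%. The summed level of the 7 genes was 745 to 818 TPM in R7-I, 586 to 610 in R7-II and 793 to 807 in R7-III. The R7-II sums were the 3 lowest.

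Idi1, which isomerizes isopentenyl diphosphate, was the most abundant member by the mean over the 9 libraries, though not within R7-II, with 262, 289 and 270 TPM in R7-I, 171, 171 and 166 in R7-II, and 280.1, 279 and 281 in R7-III. No R7-II library came near the other 6, while R7-I and R7-III overlapped. Log2 values changed by -0.69 ± 0.04 relative to R7-I and by -0.72 ± 0.04 relative to R7-III (SE, n = 3 per clone; adjusted p = 1.13e-07 and 1.14e-07, limma). Fdps, which joins isoprene units into farnesyl diphosphate, had 187, 211 and 189 TPM in R7-I, 151, 149 and 146 in R7-II, and 196, 199.9 and 196 in R7-III. Again the R7-II libraries lay below the rest, by -0.40 and -0.41 (adjusted p = 1.64e-05 and 1.40e-05, limma).

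Hmgcs1, the synthase that makes HMG-CoA, had 168, 176 and 167 TPM in R7-I, 158, 145 and 144 in R7-II, and 162, 172 and 171 in R7-III. The R7-II libraries were the 3 lowest, but replicate 1 of R7-II was close to replicate 1 of R7-III. The change was -0.19 against R7-I (adjusted p = 0.00259, limma), which missed the threshold without the mean-variance trend (0.0100101), without R7-I replicate 2 (0.0134) or without R7-II replicate 3 (0.0114). Against R7-III it was -0.17 (adjusted p = 0.00444, limma), lost without R7-II replicate 2 (0.0158), R7-II replicate 3 (0.0187), R7-III replicate 2 (0.0208) or R7-III replicate 3 (0.0175). That call was also lost under quantile normalization (0.0156), without the trend (0.0151), with R7-I left out of the fit (0.0115) and with a replicate block (0.010018). Median-of-ratios scaling gave larger differences for Hmgcs1, -0.37 and -0.31.

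Acat2, which condenses acetyl-CoA at the entry of the pathway, had 42.4, 46.5 and 43.5 TPM in R7-I, 34.8, 39.6 and 36.7 in R7-II, and 54.1, 50.9 and 48.4 in R7-III. The clones did not overlap, with R7-II lowest and R7-III highest. The change against R7-I was -0.25 (adjusted p = 0.00330, limma), lost without R7-I replicate 2 (0.0166), R7-II replicate 1 (0.0130) or R7-II replicate 3 (0.0106). It was -0.43 under median-of-ratios scaling and -0.44 under quantile normalization. Against R7-III it was -0.46 (adjusted p = 6.12e-05, limma). Pmvk, the second kinase of mevalonate, had 32.5, 40.1 and 37.1 TPM in R7-I, 34.8, 38.1 and 35.7 in R7-II, and 45.1, 44.9 and 48.5 in R7-III. R7-I and R7-II overlapped and R7-III lay above both, so that the gene passed against R7-III (-0.34, adjusted p = 0.00150, limma) and not against R7-I (-0.01). The first kinase Mvk (20.9 to 27.8 TPM over all libraries) and the decarboxylase Mvd (24.8 to 33.1 TPM) passed in neither comparison of R7-II by limma.

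Of the 9 genes from squalene to cholesterol, 2 passed as higher and 3 as lower in R7-II than R7-I, and 2 as higher and 4 as lower than in R7-III. The shares were 22.2% higher in each, where all genes had 40.6% and 35.6%, and 33.3% and 44.4% lower, where all genes had 15.5% and 18.0%. Under median-of-ratios scaling the counts were 2 and 5, and 0 and 5, beside 25.2% and 29.4%, and 25.0% and 28.2%, of all genes.

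Lss, which closes the ring system to form lanosterol, had 61.0, 62.0 and 62.1 TPM in R7-I, 48.6, 47.0 and 47.4 in R7-II, and 58.0, 58.7 and 62.2 in R7-III. The R7-II libraries stood apart below a shared range of the other clones. Log2 values changed by -0.37 relative to R7-I and by -0.32 relative to R7-III (adjusted p = 1.01e-05 and 2.97e-05, limma), and -0.55 and -0.45 under median-of-ratios scaling. Sqle, the epoxidase that prepares squalene for this step, had 101, 104 and 103 TPM in R7-I, 86.5, 83.5 and 80.0 in R7-II, and 108, 109 and 106 in R7-III. Its R7-II libraries were the 3 lowest, at -0.30 and -0.37 (adjusted p = 2.79e-05 and 6.87e-06, limma; -0.49 and -0.50 under median-of-ratios scaling). Hsd17b7, a ketosteroid reductase of the demethylation steps, had 19.1, 19.7 and 19.8 TPM in R7-I, 12.1, 11.2 and 11.6 in R7-II, and 17.4, 18.0 and 20.3 in R7-III. This was the widest gap among the squalene to cholesterol genes that were lower in R7-II, at -0.70 ± 0.06 and -0.63 ± 0.06 (SE, n = 3 per clone; adjusted p = 4.22e-06 and 9.65e-06, limma).

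Cyp51, the lanosterol demethylase, had 84.0, 88.2 and 86.8 TPM in R7-I, 82.2, 81.9 and 75.2 in R7-II, and 114, 114 and 116 in R7-III. The R7-III libraries stood well above the other clones, which lay close to each other without overlap. The change was -0.52 in R7-II against R7-III (adjusted p = 1.40e-06, limma) and -0.11 against R7-I (adjusted p = 0.0244, limma), the latter passing under median-of-ratios scaling (-0.30, adjusted p = 9.53e-05) and quantile normalization (0.00212). Fdft1, which makes squalene, had 40.4 to 44.7 TPM in R7-I, 39.6 to 42.2 in R7-II and 44.0 to 46.6 in R7-III. It passed in neither comparison of R7-II as deposited (-0.06 and -0.17, adjusted p = 0.293 and 0.0102, limma) and in both under median-of-ratios scaling (-0.24 and -0.30) and quantile normalization (-0.25 and -0.31). Against R7-III, Fdft1 also passed in limma with the filter in every library (0.00977), with robust moderation (0.00930) and without R7-I replicate 2 (0.00754), R7-I replicate 3 (0.00995) or R7-II replicate 1 (0.00723).

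A pair of late reductases went the other way. Dhcr7, which takes the last step to cholesterol, had 15.8, 17.6 and 16.3 TPM in R7-I, 25.4, 25.9 and 23.9 in R7-II, and 19.5, 20.4 and 22.9 in R7-III. The clones did not overlap, with R7-I lowest and R7-II highest. The change was 0.57 against R7-I (adjusted p = 2.82e-05, limma; 0.39 under median-of-ratios scaling and 0.31 under quantile normalization), and it passed in all 20 alternatives. Against R7-III it was 0.25 (adjusted p = 0.00652, limma) and was lost without R7-I replicate 3 (0.0100417), R7-II replicate 1 (0.0192), R7-II replicate 2 (0.0205), R7-III replicate 1 (0.0322) or R7-III replicate 2 (0.0258). Median-of-ratios scaling (0.12, adjusted p = 0.112, limma), quantile normalization (0.08, adjusted p = 0.307), the absence of a filter (0.0125), a fit without R7-I (0.0136) and a replicate block (0.0110) ended that Dhcr7 call as well.

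Tm7sf2, a sterol reductase, had 4.45, 4.01 and 4.13 TPM in R7-I, 7.74, 5.61 and 6.95 in R7-II, and 4.68, 4.86 and 4.52 in R7-III. All R7-II libraries lay above the others, replicate 2 being the lowest of them. The change was 0.57 against R7-I (adjusted p = 5.55e-04, limma), or 0.35 with a pseudocount of 5, and the call ended under quantile normalization (0.21, adjusted p = 0.0668). Against R7-III it was 0.44 (adjusted p = 0.00308, limma), or 0.28 with a pseudocount of 5, and was lost under median-of-ratios scaling (0.0104) and quantile normalization (0.25, adjusted p = 0.0334) and without R7-II replicate 1 (0.0115), R7-II replicate 3 (0.0115), R7-III replicate 1 (0.0112) or R7-III replicate 3 (0.0126). Nsdhl and Ebp, enzymes of the demethylation and isomerization steps, had 26.4 to 30.3 and 28.7 to 33.3 TPM over the 9 libraries, and neither passed in either comparison of R7-II by limma, except Nsdhl as lower than in R7-III under quantile normalization (-0.23, adjusted p = 0.00644). Stard4, a carrier that moves sterol between membranes, had 33.2, 34.1 and 33.2 TPM in R7-I, 31.2, 31.3 and 29.8 in R7-II, and 33.7, 35.5 and 35.5 in R7-III. The R7-II values were the 3 lowest, by a small margin. Stard4 passed against R7-III (-0.18, adjusted p = 0.00338, limma) unless R7-II replicate 3 (0.0154), R7-III replicate 2 (0.0171) or R7-III replicate 3 (0.0145) was left out or R7-I was not fitted (0.0103). Against R7-I it did not (-0.12, adjusted p = 0.0257, limma), but did under median-of-ratios scaling (-0.30), which gave -0.31 against R7-III. Quantile normalization gave -0.33 in each.

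Over the 17 sterol genes together, 2 passed as higher and 7 as lower in R7-II than R7-I by limma, and 2 as higher and 10 as lower than in R7-III. The shares lower were 41.2% and 58.8%, where all genes had 15.5% and 18.0%. Under median-of-ratios scaling the counts were 2 and 10, and 0 and 11, with 58.8% and 64.7% lower, where all genes had 29.4% and 28.2%. The median of their changes lay at -0.11 in the comparison with R7-I and at -0.18 in that with R7-III, where all genes had 0.17 and 0.12. The summed level of the 17 was 1161 to 1253 TPM in R7-I, 962 to 1007 in R7-II and 1251 to 1278 in R7-III, so that R7-I and R7-III overlapped and R7-II lay below both.

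**Figure D2:**
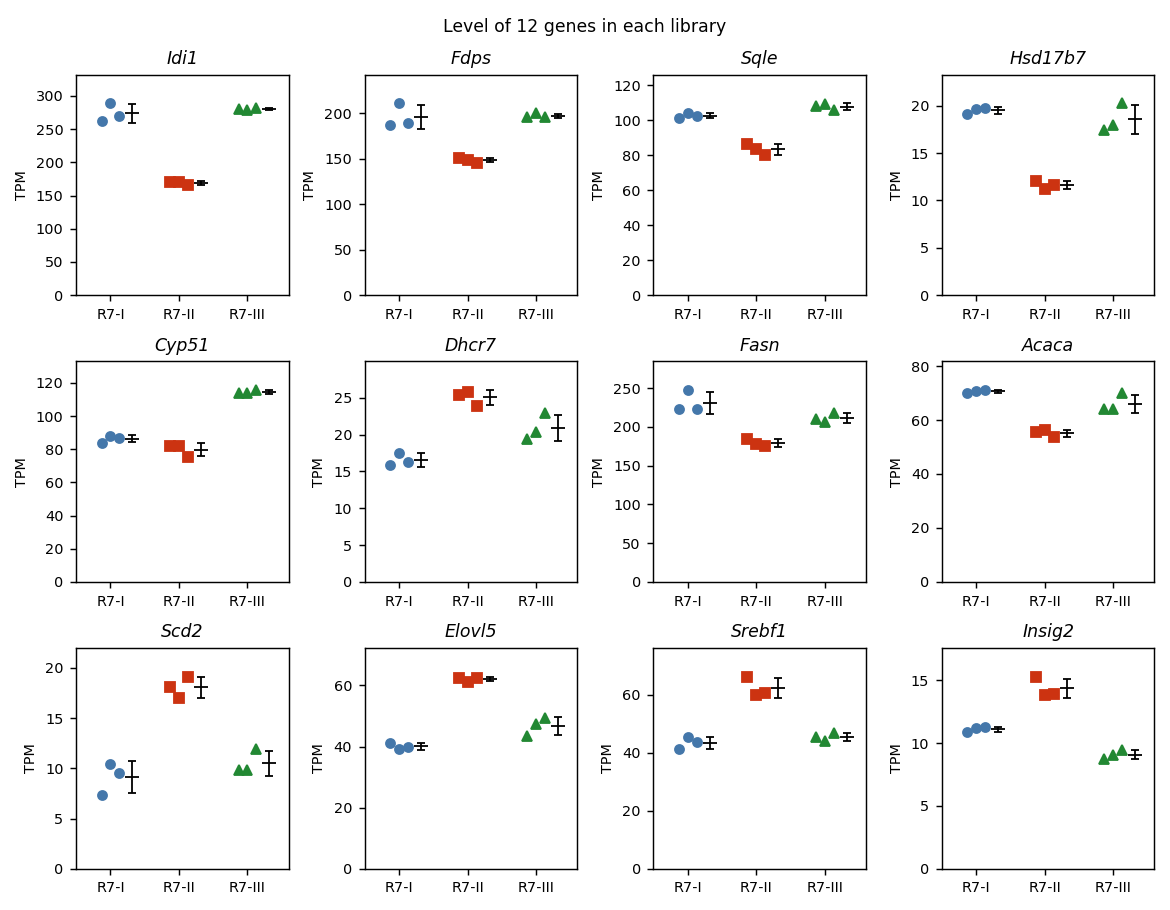
TPM of single members in each library, with the mean and SD of 3 libraries per clone beside the points. Idi1 lies at 166 to 171 TPM in R7-II and at 262 to 289 in the other clones, while Srebf1 and Elovl5 are highest in R7-II and Cyp51 in R7-III.

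In the fatty acid branch, 3 of 10 genes passed as higher and 3 as lower in R7-II than R7-I, and 3 as higher and 4 as lower than in R7-III. One of the higher genes in each count, Scd1, entered the test through R7-II alone. Over all genes 40.6% were higher and 15.5% lower against R7-I, and 35.6% and 18.0% against R7-III (25.2% and 29.4%, and 25.0% and 28.2%, under median-of-ratios scaling). The share higher was 30.0% in each comparison with and without this scaling. Because that share counts Scd1, it is not read against the share of all genes. Under median-of-ratios scaling the counts were 3 higher and 5 lower, and 3 and 6.

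Fasn, the synthase that builds palmitate, had 223, 247 and 223 TPM in R7-I, 185, 177 and 176 in R7-II, and 210.1, 206 and 218 in R7-III. The clones did not overlap, with R7-II lowest and R7-I highest. R7-II differed by -0.36 from R7-I and by -0.24 from R7-III (adjusted p = 3.52e-05 and 7.29e-04, limma), and -0.55 and -0.37 under median-of-ratios scaling. Acaca, the carboxylase that supplies malonyl-CoA, had 70.1, 70.8 and 71.0 TPM in R7-I, 55.6, 56.2 and 53.6 in R7-II, and 64.0, 64.1 and 69.9 in R7-III. The order of the clones was as for Fasn, again without overlap. Its changes were -0.35 and -0.25 (adjusted p = 2.68e-05 and 2.80e-04, limma), and -0.54 and -0.39 under median-of-ratios scaling. Acly, which cuts citrate to cytosolic acetyl-CoA and so feeds both branches, had 174 to 181 TPM in R7-I, 181 to 186 in R7-II and 194 to 197 in R7-III. It passed in neither comparison of R7-II (0.04 and -0.09, adjusted p = 0.217 and 0.0155, limma). Median-of-ratios scaling turned the first of these to -0.15 and made both pass as lower (adjusted p = 7.14e-04 and 5.30e-05, limma).

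The desaturases were split. Scd2, a stearoyl-CoA desaturase, had 7.37, 10.4 and 9.55 TPM in R7-I, 18.0, 17.0 and 19.1 in R7-II, and 9.79, 9.79 and 11.9 in R7-III. The R7-II libraries were well above the other 6. The change was 0.92 ± 0.11 and 0.73 ± 0.11 (SE, n = 3 per clone; adjusted p = 4.20e-05 and 2.28e-04, limma). Its paralogue Scd1 was near the limit of what the table shows, with 0.39, 0.93 and 0.53 TPM in R7-I, 2.78, 1.87 and 2.41 in R7-II, and 0.23, 0.36 and 0.30 in R7-III. R7-II was above 1 TPM in every library and the others in none. The change was 1.06 and 1.36, given without a p because the gene entered the fit through R7-II alone. Because the level is low, the pseudocount set the size for Scd1: 1.83 and 2.62 with 0.1, and 0.39 and 0.47 with 5. Fads2, which desaturates polyunsaturated fatty acids, had 2.01, 2.85 and 2.70 TPM in R7-I, 0.73, 1.29 and 0.46 in R7-II, and 2.95, 3.73 and 3.40 in R7-III. The clones did not overlap and R7-II was lowest, at -0.96 and -1.28 (adjusted p = 4.51e-04 and 6.74e-05, limma), or -1.58 and -1.99 with a pseudocount of 0.1 and -0.37 and -0.52 with 5. Fads1, the partner desaturase of Fads2, varied within R7-II (31.0, 18.7 and 26.4 TPM), overlapped with the other clones (25.2 to 33.5 TPM) and passed in neither comparison by limma.

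Among the elongases, Elovl5, which lengthens polyunsaturated fatty acids, had 41.3, 39.1 and 39.8 TPM in R7-I, 62.4, 61.3 and 62.5 in R7-II, and 43.5, 47.4 and 49.2 in R7-III. The R7-II libraries were tight and far above the rest, and R7-III lay above R7-I. Log2 values changed by 0.62 ± 0.05 relative to R7-I and by 0.40 ± 0.05 relative to R7-III (SE, n = 3 per clone; adjusted p = 1.44e-06 and 2.92e-05, limma). Elovl6, which lengthens saturated chains such as palmitate, had 6.07, 6.11 and 5.72 TPM in R7-I, 5.77, 5.79 and 5.97 in R7-II, and 8.18, 8.62 and 8.16 in R7-III. R7-I and R7-II overlapped below R7-III, and R7-II differed by -0.03 from R7-I and by -0.45 from R7-III (adjusted p = 0.740 and 1.43e-04, limma), the latter -0.30 with a pseudocount of 5. Under quantile normalization Elovl6 passed as lower against R7-I as well (-0.37, adjusted p = 4.55e-04, limma). Elovl1, an elongase of very long chains, had 99.4 to 109.5 TPM over the libraries. It passed in neither comparison of R7-II by limma as deposited and as lower in both under median-of-ratios scaling (-0.22 in each).

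The exporters were at low levels. Abcg1, which passes cholesterol to lipoproteins, had 0.40, 0.47 and 0.43 TPM in R7-I, 4.10, 3.17 and 3.95 in R7-II, and 0.27, 0.28 and 0.56 in R7-III. Every R7-II library exceeded the highest of the others by far, and R7-I and R7-III overlapped below 1 TPM. Mean TPM in R7-II was 8.63 times that in R7-I and 10.1 times that in R7-III. The log2 fold change was 1.72 and 1.79, given without a p because the gene entered the fit through R7-II alone, ranging to 2.84 and 3.08 with a pseudocount of 0.1 and to 0.68 and 0.70 with 5. Abca1, which loads cholesterol onto apolipoprotein A-I, had 0.04, 0.04 and 0.09 TPM in R7-I, 0.49, 0.19 and 0.43 in R7-II, and 0.01, 0 and 0.02 in R7-III. It was above the other 6 libraries in all R7-II libraries but too low for the fit across genes. With the R7-II libraries set against the other 6, a two-sided exact permutation test gave p = 0.0238, and against each clone alone p = 0.1. These are the smallest values that 3 against 6 and 3 against 3 libraries allow, so they restate the lack of overlap. Whether RNA of B cells or myeloid cells had a part in these low values was not tested.

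**Figure D3:**
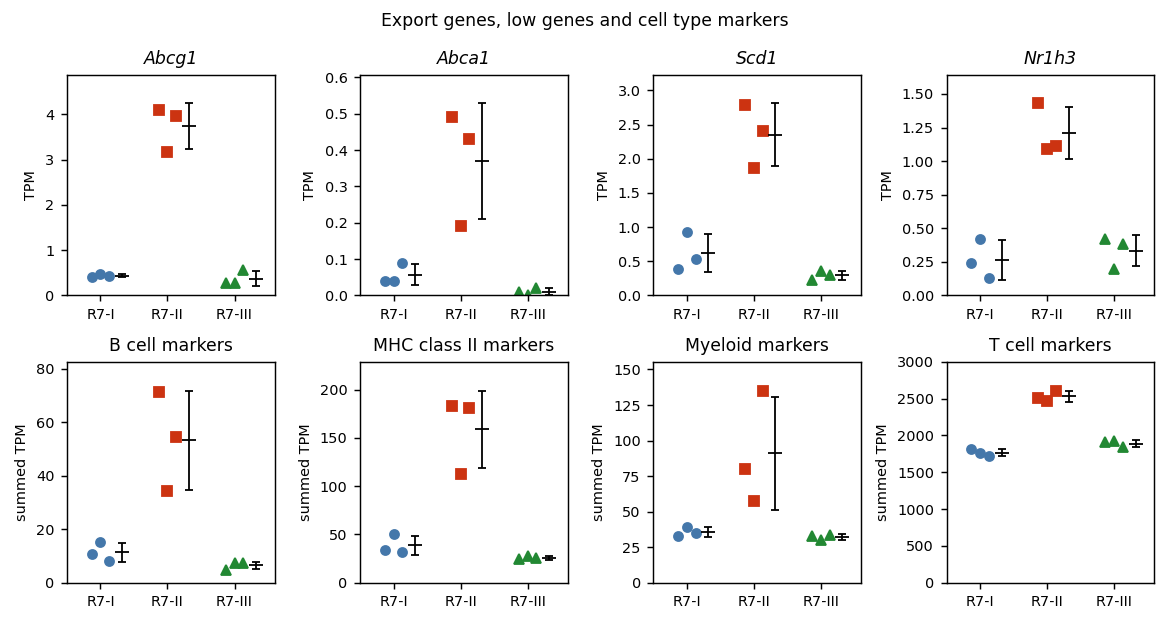
TPM of Abcg1, Abca1, Scd1 and the liver X receptor gene Nr1h3 (top) and summed TPM of T cell, B cell, myeloid and MHC class II markers (bottom) in each library, with the mean and SD of 3 libraries per clone. Abcg1 lies at 3.17 to 4.10 TPM in R7-II and at 0.27 to 0.56 elsewhere, and the B cell markers at 34.2 to 71.2 against 4.92 to 15.2.

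R7-III and R7-I, the stronger binders, differed at few members. Cyp51 was higher in R7-III by 0.40 (adjusted p = 1.25e-04, limma) in all 20 alternatives, and Elovl6 by 0.42 (adjusted p = 0.00167, limma), which was lost under quantile normalization (0.0128) and without R7-III replicate 2 (0.0116). The other calls were close to the threshold. Pmvk (0.33, adjusted p = 0.00937, limma) was lost without R7-I replicate 1 (0.0281) or 3 (0.0241), R7-II replicate 1 (0.0104) or 3 (0.0128), or R7-III replicate 1 (0.0259), 2 (0.0252) or 3 (0.0397). Dhcr7 (0.32, adjusted p = 0.00868, limma) was lost without R7-I replicate 1 (0.0419), 2 (0.0128) or 3 (0.0296), R7-II replicate 1 (0.0104) or 3 (0.0105), or R7-III replicate 1 (0.0111), 2 (0.0254) or 3 (0.0305). Acly (0.13, adjusted p = 0.00968, limma) was lost without R7-I replicate 1 (0.0489), 2 (0.0202) or 3 (0.0229), R7-II replicate 3 (0.0130), or R7-III replicate 1 (0.0328), 2 (0.0354) or 3 (0.0350). Under median-of-ratios scaling the adjusted p in limma was 0.0256 for Pmvk, 0.0170 for Dhcr7 and 0.0845 for Acly, whose change fell to 0.07, and under quantile normalization it was 0.0334, 0.0342 and 0.0147. Without the trend it was 0.0239, 0.0160 and 0.0386 in limma. With no filter Pmvk (0.0228) and Dhcr7 (0.0191) were lost, as they were with only the clones compared (0.0170 and 0.0154). A replicate block ended Dhcr7 (0.0169) and Acly (0.0253), a pseudocount of 5 Dhcr7 (0.0100095), and a pseudocount of 0.1 (0.0100334) and robust moderation (0.0103) Acly. Elovl5, at 0.21, missed the threshold (adjusted p = 0.0108, limma) and passed without R7-III replicate 1 (0.00540), with robust moderation (0.00887) and with the filter in every library (0.00969).

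Genes around the pathway were read from 6 further lists, whose counts stand beside the shares of all genes given above: 40.6% higher and 15.5% lower against R7-I, and 35.6% and 18.0% against R7-III (25.2% and 29.4%, and 25.0% and 28.2%, under median-of-ratios scaling). Under quantile normalization the shares of all genes were 22.6% higher and 26.6% lower against R7-I, and 24.4% and 25.1% against R7-III. No list was tested as a whole. Of 9 genes that process or degrade the SREBP system, 4 passed as higher in R7-II than R7-I and 0 as lower in limma (4 and 0 at an unadjusted p under 0.05), and 4 as higher and 1 as lower than in R7-III (3 and 3, and 4 and 2, under median-of-ratios scaling). The share of 44.4% higher in each lay near that of all genes. Mbtps1, the protease that first cleaves SREBP, had 51.0, 48.7 and 49.0 TPM in R7-I, 68.1, 59.0 and 67.1 in R7-II, and 44.4, 46.1 and 47.3 in R7-III. It was highest in the R7-II libraries, by 0.38 and 0.48 (adjusted p = 1.28e-04 and 2.34e-05, limma), the former 0.19 under median-of-ratios scaling and 0.24 under quantile normalization. Rnf145, a ubiquitin ligase of the endoplasmic reticulum, was at 83.9 to 92.6 TPM in R7-II, 68.1 to 73.3 in R7-I and 57.7 to 64.7 in R7-III (0.30 and 0.54, adjusted p = 5.16e-04 and 8.90e-06, limma). Median-of-ratios scaling ended the first of these calls for Rnf145 (0.12, adjusted p = 0.0460, limma).

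In the liver X receptor list, 5 of 7 genes passed as higher and 1 as lower in R7-II than R7-I, and 6 as higher and 1 as lower than in R7-III (4 and 1 in each under median-of-ratios scaling, and 3 and 1 in each under quantile normalization). The most abundant, Nr1h2, which encodes LXRβ, had 110.4, 114 and 117 TPM in R7-I, 132, 132 and 128 in R7-II, and 120.3, 122 and 120.3 in R7-III. The clones did not overlap, and R7-II was highest. Its change was 0.20 against R7-I (adjusted p = 2.33e-04, limma), a call that median-of-ratios scaling ended (0.01, adjusted p = 0.791). Against R7-III it was 0.11 (adjusted p = 0.00844, limma), lost under median-of-ratios scaling (-0.02, adjusted p = 0.599), without the trend (0.0240), with only the clones compared (0.0113) and with a replicate block (0.0179). It was also lost in limma without R7-I replicate 2 (0.0137), R7-II replicate 1 (0.0218) or 2 (0.0220), or R7-III replicate 1 (0.0301), 2 (0.0218) or 3 (0.0246). Rxrb, a retinoid X receptor that pairs with liver X receptors, had 57.5, 56.6 and 63.0 TPM in R7-I, 86.2, 79.7 and 85.8 in R7-II, and 65.6, 63.9 and 66.8 in R7-III. Its R7-II libraries lay above the other 6, by 0.50 and 0.35 (adjusted p = 6.97e-06 and 8.75e-05, limma), or 0.32 and 0.22 under median-of-ratios scaling. The lower gene of the list, Rxra, a paralogue of Rxrb, was chosen after its values were seen, with 8.82, 10.4 and 10.6 TPM in R7-I, 4.40, 7.43 and 7.53 in R7-II, and 12.1, 11.7 and 14.7 in R7-III. Its R7-II libraries were the 3 lowest, at -0.58 and -0.92 (adjusted p = 0.00889 and 5.49e-04, limma). The call against R7-I was lost with no filter (0.0241), without the trend (0.0189), with robust moderation (0.0122) and with only the clones compared (0.0209). Leaving out R7-I replicate 1 (0.0119), 2 (0.0306) or 3 (0.0323), R7-II replicate 1 (0.0133), or R7-III replicate 1 (0.0130), 2 (0.0121) or 3 (0.0101) ended it too, and the value was -0.36 without R7-II replicate 1 and -0.89 under quantile normalization. Nr1h3, which encodes the receptor LXRα, was chosen after its values were seen and passed the filter through R7-II alone, with 0.24, 0.42 and 0.13 TPM in R7-I, 1.43, 1.09 and 1.11 in R7-II, and 0.42, 0.20 and 0.38 in R7-III. Without it, 4 of 6 genes of the list were higher and 1 lower than in R7-I, and 5 higher and 1 lower than in R7-III.

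Of 10 tested genes that store or move sterol, 7 passed as higher and 2 as lower in R7-II than R7-I, and 6 as higher and 2 as lower than in R7-III (4 and 2, and 6 and 2, under median-of-ratios scaling). The shares higher were 70.0% and 60.0%, where all genes had 40.6% and 35.6%, and 20.0% were lower in each, where all genes had 15.5% and 18.0%. Npc2, which lifts cholesterol out of the lysosome, had 109, 108 and 104 TPM in R7-I, 164, 157 and 169 in R7-II, and 103, 108 and 98.6 in R7-III. The R7-II libraries were far above the others, by 0.61 and 0.66 (adjusted p = 7.96e-07 and 4.56e-07, limma). Gramd1b, which carries cholesterol from the plasma membrane inward, was lower in R7-II (206 to 235 TPM) than in R7-I (294 to 321) and R7-III (265 to 275), by -0.47 and -0.28 (adjusted p = 1.08e-05 and 3.97e-04, limma). Its homologue Gramd1a was higher, at 121 to 129.6 TPM in R7-II, 87.0 to 97.1 in R7-I and 101 in R7-III (0.43 and 0.29, adjusted p = 9.15e-06 and 1.43e-04, limma), or 0.24 and 0.16 under median-of-ratios scaling. An opposed pair was picked after the values were seen. Soat1, which esterifies cholesterol for storage, had 26.4, 26.2 and 26.8 TPM in R7-I, 16.3, 13.1 and 13.5 in R7-II, and 27.3, 26.4 and 27.7 in R7-III (-0.85 and -0.88, adjusted p = 2.66e-06 and 1.94e-06, limma). Lipa, the lysosomal lipase that frees cholesterol from its esters, had 18.5, 18.0 and 19.0 TPM in R7-I, 35.7, 33.7 and 34.7 in R7-II, and 19.2, 19.6 and 18.6 in R7-III (0.87 and 0.82, adjusted p = 1.32e-07 and 2.01e-07, limma). For both genes the R7-II libraries stood apart from the other 6, which overlapped.

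The 11 genes of the isoprenoid branch, which attach or lengthen farnesyl units, gave 4 higher and 4 lower in R7-II than R7-I and 3 higher and 2 lower than in R7-III (0 and 5, and 2 and 4, under median-of-ratios scaling, by limma). Against R7-I 36.4% were lower, where all genes had 15.5%, but against R7-III 18.2%, near the 18.0% of all genes. Quantile normalization gave 0 higher and 5 lower, and 1 and 5, in limma, beside 22.6% and 26.6%, and 24.4% and 25.1%, of all genes. The most abundant, Rabggtb, a subunit of the transferase that prenylates Rab proteins, was lower in R7-II (163 to 169 TPM) than in R7-I (194 to 198) and R7-III (184 to 189), by -0.24 and -0.18 (adjusted p = 1.86e-05 and 2.07e-04, limma), or -0.43 and -0.31 under median-of-ratios scaling.

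Of 14 tested genes that supply or activate fatty acids, 3 passed as higher and 4 as lower in R7-II than R7-I, and 2 as higher and 6 as lower than in R7-III (1 and 7, and 2 and 10, under median-of-ratios scaling). These are 21.4% and 14.3% higher, where all genes had 40.6% and 35.6%, and 28.6% and 42.9% lower, where all genes had 15.5% and 18.0%. Elovl7, singled out after its values were seen, passed the filter through R7-II alone, and without it 2 were higher and 4 lower, and 1 higher and 6 lower. Fabp5, a fatty acid binding protein, had 168, 173 and 159 TPM in R7-I, 149, 167 and 174 in R7-II, and 274, 272 and 258 in R7-III. R7-I and R7-II overlapped and R7-III was far above both, with -0.71 in R7-II against R7-III and 0.68 in R7-III against R7-I (adjusted p = 1.53e-06 and 3.83e-05, limma). In fatty acid breakdown, 9 of 13 tested genes (69.2%, where all genes had 40.6%) were higher and 1 lower in R7-II than R7-I, and 7 higher (53.8%, where all genes had 35.6%) and 2 lower than in R7-III (6 and 2 in each under median-of-ratios scaling). Cpt1a, which admits fatty acids to the mitochondrion for oxidation, had 4.75, 5.18 and 5.63 TPM in R7-I, 17.3, 14.3 and 15.2 in R7-II, and 7.03, 7.44 and 6.59 in R7-III. The clones did not overlap, and R7-II was highest, by 1.42 ± 0.09 and 1.05 ± 0.09 (SE, n = 3 per clone; adjusted p = 3.19e-07 and 2.44e-06, limma). Hadha, a subunit of the trifunctional protein of this route, was at 97.0 to 107 TPM in R7-II and 78.6 to 83.5 elsewhere (0.33 and 0.28, adjusted p = 3.08e-05 and 1.10e-04, limma; 0.15 in each under median-of-ratios scaling). Etfb, which takes electrons from its dehydrogenases, was lower in R7-II, at 85.2 to 101 TPM, than in R7-I (107 to 115) and R7-III (128 to 133), by -0.27 and -0.49 (adjusted p = 0.00134 and 2.42e-05, limma; the former -0.46 under median-of-ratios scaling).

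Some members share sequence with other genes or pseudogenes, which leaves their TPM less certain. Of the stretches of 100 bases in the GENCODE M21 transcripts of each gene, 28.9% recur in transcripts of another gene for Acat2, 23.7% for Acaca, 21.9% for Idi1, 21.4% for Fdps and 18.3% for Fdft1. The share is 8.22% for Hmgcs1, 7.92% for Tm7sf2, 6.59% for Scap and 2.58% for Scd1, the last shared in part with Scd2.

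The start regions of the members were searched, on both strands, for TCACNCCAC, a core of the sterol regulatory element, for CCAAT, the box bound by NF-Y, which works beside SREBP, and for CACGTG, the E box. RefSeq windows of 300 bases, 250 before the start and 50 after it (GRCm38.p6), existed for 26 of the 34 members and not for Fdps, Fdft1, Sqle, Stard4, Scd1, Scd2, Fads1 and Abcg1. CCAAT occurred for 20 of 26 members (76.9%) and for 41.1% of the 27025 genes with a window, and for 12 of 13 sterol genes (92.3%). CACGTG occurred for 6 of 26 members (23.1%) and 8.09% of all genes, and TCACNCCAC for 1 of 26, Hmgcs1, and 1.44% of all genes. By direction, CCAAT was present for 5 of 5 members higher in R7-II than in either other clone, 6 of 9 lower than in both, and 7 of 7 that passed in neither comparison. Some genes have several windows, and per window the order was the reverse, with 54.5% for the higher and 66.7% for the lower members, so that it did not part the directions. Over all members 60.0% of windows had CCAAT, and 37.4% over all genes. A match is a string of letters and not a known binding site. The 180 bases before the start are printed, 5′ to 3′ on the strand of the gene, for 4 genes that were lower in R7-II (Hmgcs1, Idi1, Lss and Hsd17b7) and 2 that were higher (Tm7sf2 and Elovl5). They lie at chr13:119690171-119690350 (plus strand) for Hmgcs1, chr13:8885426-8885605 (plus) for Idi1, chr10:76531425-76531604 (plus) for Lss, chr1:169969206-169969385 (minus) for Hsd17b7, chr19:6067851-6068030 (minus) for Tm7sf2 and chr9:77917185-77917364 (plus) for Elovl5. Capitals mark matches to the searched motifs, with CCAAT on the opposite strand reading ATTGG.
Hmgcs1: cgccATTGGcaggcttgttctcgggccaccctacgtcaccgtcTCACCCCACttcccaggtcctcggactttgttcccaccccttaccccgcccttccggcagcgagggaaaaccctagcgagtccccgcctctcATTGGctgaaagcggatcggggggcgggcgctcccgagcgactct
Idi1: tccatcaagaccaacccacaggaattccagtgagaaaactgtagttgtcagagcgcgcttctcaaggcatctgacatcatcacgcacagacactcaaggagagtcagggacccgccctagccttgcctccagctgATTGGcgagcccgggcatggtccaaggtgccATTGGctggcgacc
Lss: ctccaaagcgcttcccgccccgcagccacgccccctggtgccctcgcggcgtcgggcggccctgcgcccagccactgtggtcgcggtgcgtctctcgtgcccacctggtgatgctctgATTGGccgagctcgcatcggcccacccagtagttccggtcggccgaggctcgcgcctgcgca
Hsd17b7: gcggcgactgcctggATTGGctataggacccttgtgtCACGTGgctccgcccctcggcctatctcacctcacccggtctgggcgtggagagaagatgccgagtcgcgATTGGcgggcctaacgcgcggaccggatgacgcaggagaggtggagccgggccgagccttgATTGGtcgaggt
Tm7sf2: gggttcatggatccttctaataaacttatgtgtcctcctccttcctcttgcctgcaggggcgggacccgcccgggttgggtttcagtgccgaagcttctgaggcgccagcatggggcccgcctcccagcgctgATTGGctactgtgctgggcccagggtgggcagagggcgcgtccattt
Elovl5: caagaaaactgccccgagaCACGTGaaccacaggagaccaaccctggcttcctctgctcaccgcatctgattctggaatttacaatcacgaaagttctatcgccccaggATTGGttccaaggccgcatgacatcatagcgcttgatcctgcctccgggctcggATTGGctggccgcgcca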

How the data were processed

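The authors sequenced TruSeq libraries of the sorted cells and estimated gene levels with RSEM 1.2.11 on mm10 RefSeq genes, and the deposited table gives TPM per gene (length-corrected relative abundance) for 9 libraries. The authors' own test was DESeq2 1.8.1 on counts, which were not used here. Here genes with a TPM above 1 in at least 1 library were kept (11330), values were taken as log2(TPM + 1), and all 9 libraries entered 1 fit in limma 3.58.1 (R 4.3.3, lmFit and eBayes with trend). Contrasts of the 3 clones were adjusted over all genes tested by Benjamini-Hochberg, with a threshold of 0.01. Exact permutation tests used scipy 1.17.1 (Python 3.11.15). The fit was tested on simulated data. The members and lists were chosen with earlier results of these data known. All 34 members were eligible to be named. From each further list the 3 most abundant genes were eligible, and those changed over 2-fold against both clones. Others named are stated as chosen or singled out after their values were seen. The 20 alternatives covered pseudocount, filter, scaling, moderation, threshold, libraries fitted, a replicate block and each library left out.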

Additional observations from a re-analysis of the deposited data

How the results depend on the processing

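The 20 alternatives gave 5124 values, of which 4714 kept their direction and their side of the threshold or moved little. The counts of members in R7-II against R7-I ranged from 7 to 11 higher and 9 to 16 lower, and against R7-III from 6 to 9 higher and 13 to 18 lower. The shares of all genes moved too. Against R7-I they were 40.6% and 15.5% as deposited and 25.2% and 29.4% under median-of-ratios scaling. Against R7-III they were 35.6% and 18.0%, and 25.0% and 28.2%. Counts of members without such a share for the same setting are not read as a result about the members. Of the members that passed, 15 of 20 against R7-I and 19 of 23 against R7-III passed in every alternative run on them (19 for Scd1, Fads2 and Abcg1, of which Scd1 and Abcg1 entered the test through R7-II alone), but 1 of 5 in R7-III against R7-I. In that comparison the 5 members higher became 3 with no filter, 2 under median-of-ratios scaling, 1 under quantile normalization, 2 without the trend, 3 with only the clones compared, 3 with a replicate block and 8 at an adjusted p of 0.05. Leaving out 1 library gave 1 to 5. The 0 members lower became 1 under median-of-ratios scaling, under quantile normalization, without the trend and at 0.05, and 0 to 1 without 1 library. The 953 genes passing became 2142 at 0.05 and 436 to 1120 without 1 library. Median-of-ratios scaling reversed Acly in R7-II against R7-I (0.04 to -0.15) and Nr1h2 in R7-II against R7-III (0.11 to -0.0207). The cause was not tested. Deviations of same-numbered libraries correlated at -0.0449 to 0.0888 (9 pairs), and those of different-numbered libraries of different clones at -0.0948 to 0.0649. The labels do not say whether replicate numbers pair the libraries, and these values do not settle it. With a replicate block 9 members were higher and 11 lower in R7-II than R7-I, and 7 and 14 than in R7-III. No share of all genes with the block is given beside these counts. With 3 libraries per clone, no read counts and 1 mouse line per clone, differences of low genes such as Abca1 and Scd1 rest on read numbers that the table does not give.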
